A study of Mus musculus with 23 samples.

Results

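The genes described here are 9 mouse genes of homologous recombination, the Fanconi pathway and single-stranded DNA binding: Rad51c, Brca1, Brca2, Fancd2, Fanca, Fancc, Rpa1, Rpa2 and Rpa3. They were taken as a list of names, with every probe set that the platform annotation gives to 1 of them alone. This gave 21 probe sets among the 45037 tested, and 9 of the 18193 genes measured. Each gene was represented by its probe set with the highest mean over the 23 arrays, and the 12 other probe sets were tested as well. No filter on low values was applied, and all 9 genes were tested. The representative probe sets of 6 genes averaged at least 6 on the log2 scale, and those of Brca1, Fancd2 and Fanca averaged less.

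The livers came from male mice of the line hemizygous FVB/N-SULT1A1/2, which carry human SULT1A1 and SULT1A2, sulfotransferases that can turn benzylic alcohols into reactive sulfate esters. All groups carried the transgenes, and the promoter that drives them is not given in the sources used here. Treated mice received 1-MIM-OH (1-methoxy-3-indolylmethyl alcohol, a glucosinolate metabolite) orally, 3 times per week at 26 mg/kg, and control mice received only glyceryl trioctanoate, the vehicle. The 4 groups were treated mice at 21 d (n = 5, 10 treatments), vehicle mice at 21 d (n = 6), treated mice at 90 d (n = 6, 40 treatments) and vehicle mice at 90 d (n = 6), each killed 24 h after the last treatment. The labels give an age of 5 weeks for every group, and do not say whether it is the age at the first treatment. Each array measured the whole liver RNA of 1 mouse. By its title, the study asked how close the expression profile comes to that of genotoxic liver carcinogens.

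Homologous recombination repairs a broken chromosome by copying the intact sister molecule. RPA, the trimer of the Rpa1, Rpa2 and Rpa3 products, coats single-stranded DNA at resected ends and at stalled replication forks. BRCA1 promotes resection, and BRCA2 and the Rad51c product act in the later steps of recombination. The Fanconi pathway removes crosslinks between DNA strands: a core complex that includes FANCA and FANCC serves to ubiquitinate FANCD2, which then directs the repair. Many of these genes are transcribed mainly in dividing cells, and most hepatocytes of an adult liver do not divide.

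Of the 9 genes, Rpa1 alone passed the test. Over both times its representative probe set was 0.31 ± 0.05 (SE) higher in treated than in vehicle livers on the log2 scale. This is 1.24-fold (limma adjusted p = 0.00208). The second Rpa1 probe set was 0.16 ± 0.07 higher and did not pass (limma adjusted p = 0.231). Rpa2 and Rpa3, which encode the partners of the Rpa1 product, did not pass, and neither did any of the recombination or Fanconi genes. Of all 18193 genes, 3.78% passed in this contrast, and 1 call in so short a list says nothing about the list as a whole. The bulk values cannot tell less RNA per cell from fewer cells of a type.

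RNA quality differed between the groups at 21 d and is given before the results. Gapdh is read by control probe sets at its 3' and 5' ends, and their log2 difference grows as RNA or labelled product shortens. This Gapdh difference averaged 1.00 ± 0.51 in treated and 0.33 ± 0.13 in vehicle livers at 21 d (SD, n = 5 and 6; 2-sided exact permutation p = 0.0216). At 90 d it averaged 0.53 ± 0.40 in treated and 0.50 ± 0.15 in vehicle livers (n = 6 each; exact p = 0.909). Values over 0.9 were found in 5 livers: replicates 1, 3, 4 and 5 of the treated 21 d group, and replicate 6 of the treated 90 d group. The means of 5 hepatocyte marker genes lay between 14.28 and 14.56 on every array and ran somewhat lower in treated livers. At 21 d they were 14.28 to 14.52 in treated and 14.42 to 14.53 in vehicle livers. At 90 d they were 14.38 to 14.48 and 14.46 to 14.56. Of the hepatocyte, macrophage, lymphocyte, neutrophil, endothelial, stellate and cholangiocyte markers, 0 passed the test in any of the 3 treatment contrasts. The lowest limma adjusted p of a hepatocyte marker was 0.0554, over both times. The Kupffer and macrophage markers averaged between 8.18 and 11.07 in treated and between 8.47 and 10.57 in vehicle livers at 21 d, so livers of 1 group differed widely. Cdkn1a, a p53 target that halts the cell cycle, rose in treated livers by 2.60 at 21 d and by 3.67 at 90 d on the log2 scale (limma adjusted p = 0.00135 and 2.13e-06).

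The promoter sequences of the RPA genes are shown because the subunits act as 1 complex and Rpa1 alone among them passed the test. The windows are the 250 bases before each gene's annotated start, from RefSeq on the GRCm38.p6 assembly, written 5′ to 3′ on the gene's own strand. That assembly is of another strain than the mice studied. Capitals mark every match to a motif searched on both strands: CCAAT (or ATTGG) and GGGCGG (or CCGCCC), with TTTNNCGC and TTTGAA also searched. The windows are chr11:75348384-75348633 (minus strand) for Rpa1, chr4:132768110-132768359 (plus strand) for Rpa2 and chr6:8259142-8259391 (minus strand) for Rpa3.
Rpa1: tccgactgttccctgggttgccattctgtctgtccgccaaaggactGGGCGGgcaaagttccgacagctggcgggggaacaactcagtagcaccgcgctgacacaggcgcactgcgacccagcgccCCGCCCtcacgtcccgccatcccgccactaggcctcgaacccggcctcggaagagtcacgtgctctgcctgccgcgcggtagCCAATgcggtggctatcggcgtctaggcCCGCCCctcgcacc
Rpa2: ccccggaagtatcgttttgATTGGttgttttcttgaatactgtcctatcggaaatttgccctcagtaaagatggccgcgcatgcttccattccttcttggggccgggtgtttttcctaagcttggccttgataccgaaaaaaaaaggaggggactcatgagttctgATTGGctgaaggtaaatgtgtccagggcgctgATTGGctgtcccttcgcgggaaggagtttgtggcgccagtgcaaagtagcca
Rpa3: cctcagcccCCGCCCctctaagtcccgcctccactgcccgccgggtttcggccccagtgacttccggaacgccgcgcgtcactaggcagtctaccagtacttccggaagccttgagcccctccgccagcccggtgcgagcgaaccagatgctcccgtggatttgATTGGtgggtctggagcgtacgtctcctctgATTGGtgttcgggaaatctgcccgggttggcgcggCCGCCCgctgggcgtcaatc
The Rpa1 window held 3 GGGCGG matches and 1 CCAAT match, the Rpa2 window 0 and 3, and the Rpa3 window 2 and 2. Of 32851 promoter windows of the same length, 32.7% held GGGCGG and 33.8% held CCAAT. TTTNNCGC, an E2F-type motif, was in none of these 3 windows and in 4.28% of all, and TTTGAA, part of the CHR element of cell cycle genes, was in none of them and in 16.0% of all. Of the 8 members with a promoter in the table, Brca2 alone held TTTNNCGC; Fancd2 had none in the table. These matches are descriptions of the letters and say nothing about binding.

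Rpa1 encodes the largest RPA subunit, which makes most of the contacts with DNA. Its representative probe set, 1437309_a_at, read 10.09, 10.47, 10.33, 10.07 and 10.17 in the 5 treated livers at 21 d, against a lowest value of 9.77, a median of 9.95 and a highest of 10.07 in the 6 vehicle livers. The groups touched at 10.07, the lowest treated and the highest vehicle value. After 90 d the treated livers ran from 10.23 through a median of 10.32 to 10.56, against 9.96, 10.02 and 10.11 in vehicle livers. Here every treated liver lay above every vehicle liver, which held in either direction for 1.35% of all genes at 90 d and for 2.81% at 21 d. The order of the group means was treated 90 d, 10.35 ± 0.12 (SD), treated 21 d, 10.23 ± 0.17, vehicle 90 d, 10.03 ± 0.07, and vehicle 21 d, 9.94 ± 0.12, and the ranges of neighbours in that order overlapped.

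**Figure D1:**
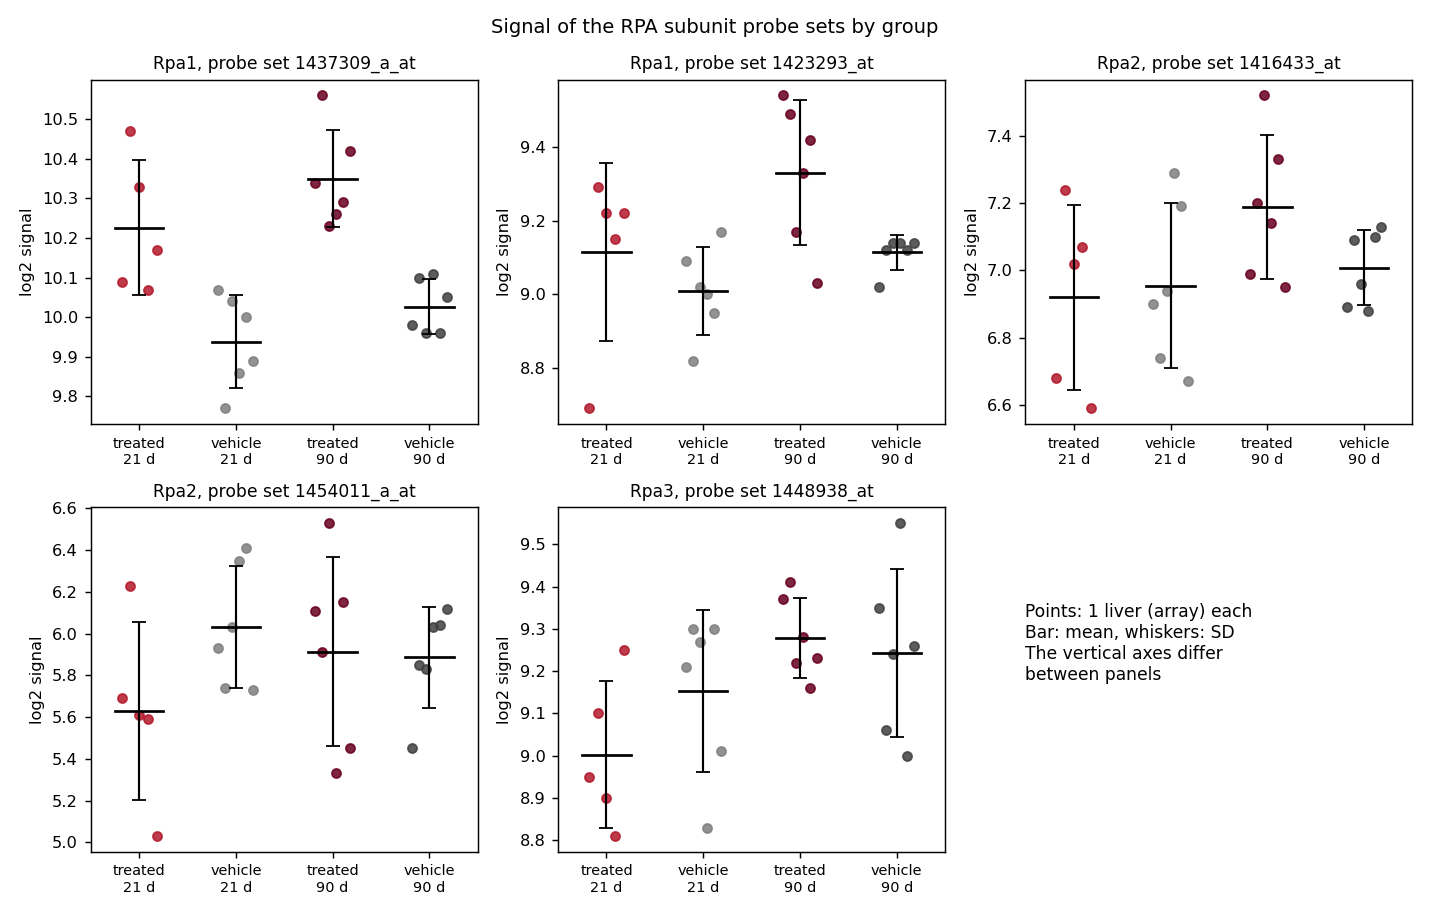
Log2 signal of the 5 probe sets of Rpa1, Rpa2 and Rpa3 in each liver (points), with the group mean and SD (bar and whiskers), for treated and vehicle livers at 21 d and 90 d. In Rpa1 probe set 1437309_a_at the treated livers at 90 d start at 10.23, above the highest vehicle liver at 10.11, while the groups overlap in every other panel.

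At 21 d Rpa1 was 0.29 ± 0.08 higher in treated livers (95% interval 0.13 to 0.45; 1.22-fold), and this missed the threshold (limma adjusted p = 0.0672). At 90 d it was 0.32 ± 0.07 higher (0.17 to 0.48; 1.25-fold) and passed (limma adjusted p = 0.0462). At 21 d, 0 of the 9 genes passed, against 1.17% of all genes, and at 90 d 1 of 9 passed, against 0.748%. The difference between the effects at the 2 times was 0.04 for Rpa1 (limma adjusted p = 0.930), and 0 members and 0% of all genes passed that test; at an unadjusted p under 0.05, 0 members and 8.64% of genes did.

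The 90 d call for Rpa1 was narrow. Leaving out 1 array at a time ended it in 18 of 23 fits, with limma adjusted p-values between 0.0511 and 0.142 and differences between 0.28 and 0.35 over all 23 fits. The 5 fits that kept it were those without treated 21 d replicate 1, 2 or 4, vehicle 21 d replicate 2 or treated 90 d replicate 3. It also ended with median centring, with only the 90 d groups in the fit and with the mean of both Rpa1 probe sets (limma adjusted p between 0.0571 and 0.0616). With replicate number as a block in the fit it ended too (limma adjusted p = 0.0976). The mean over both times passed in all 23 leave-one-out fits, between 0.28 and 0.33 (limma adjusted p between 0.00158 and 0.0063).

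The second Rpa1 probe set, 1423293_at, gave smaller differences. It read 8.69, 9.29, 9.22, 9.15 and 9.22 in treated livers at 21 d, against 8.82 to 9.17 (median 9.01) in vehicle livers. Treated livers at 90 d ran from 9.03 to 9.54 (median 9.38), against 9.02 to 9.14 (median 9.13) in vehicle livers, so the groups overlapped. The log2 differences were 0.11 ± 0.10 at 21 d, 0.22 ± 0.09 at 90 d and 0.16 ± 0.07 over both times, and none passed (limma adjusted p = 0.664, 0.409 and 0.231). Over the 23 arrays the 2 Rpa1 probe sets correlated at r = 0.65, with the group differences included. The call for Rpa1 therefore rests on 1 of its 2 probe sets.

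With the Gapdh difference as a covariate, Rpa1 was 0.36 higher in treated livers at 21 d and did not pass (limma adjusted p = 0.167). In the same fit it was higher by 0.33 at 90 d and by 0.34 over both times (limma adjusted p = 0.0253 and 0.00223). Without the 5 arrays over 0.9, the 90 d difference was 0.31 (limma adjusted p = 0.0301). That fit left 1 treated array at 21 d, and it gave 0.53 at 21 d and 0.42 over both times, values that rest on the single array for the treated 21 d level. That array, treated 21 d replicate 2, had the lowest Gapdh difference of its group, 0.14, and the highest Rpa1 signal, 10.47.

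Rpa2 encodes the subunit that is phosphorylated when DNA is damaged. Probe set 1416433_at read 6.68, 7.24, 7.02, 7.07 and 6.59 in treated livers at 21 d, against 6.67 to 7.29 (median 6.92) in vehicle livers. The 90 d values ran from 6.95 to 7.52 (median 7.17) in treated livers, against 6.88 to 7.13 (median 7.03) in vehicle livers. The groups overlapped at both times, and the log2 differences were -0.04 ± 0.12 and 0.18 ± 0.12 (limma adjusted p = 0.935 and 0.646). The interval at 90 d ran from -0.06 to 0.42, which includes the size seen for Rpa1.

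The second Rpa2 probe set, 1454011_a_at, differed by -0.40 ± 0.20 at 21 d and by 0.03 ± 0.19 at 90 d (limma adjusted p = 0.335 and 0.980). Its values at 21 d were 5.69, 6.23, 5.61, 5.59 and 5.03 in treated livers, against 5.73 to 6.41 in vehicle livers. The only treated liver within the vehicle range was replicate 2, the treated array at 21 d with a Gapdh difference under 0.9. Within groups, signal of the representative Rpa2 probe set was lower on arrays with a larger Gapdh difference (23 arrays, deviations from group means, r = -0.62 and rho = -0.60, permutation p = 0.00102 and 0.00333, adjusted over 9 genes 0.00653 and 0.03). Without the 2 arrays farthest in Gapdh difference r was -0.51. These permutation p-values, and those for correlations below, took no account of the fitted group means and are somewhat too small. With the Gapdh difference as a covariate, the Rpa2 difference at 21 d was 0.24 (limma adjusted p = 0.654).

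Rpa3 encodes the small subunit and had 1 probe set, 1448938_at. It read 8.95, 9.10, 8.90, 8.81 and 9.25 in treated livers at 21 d, against 8.83 to 9.30 (median 9.24) in vehicle livers. At 90 d it ran from 9.16 to 9.41 (median 9.26) in treated livers, against 9.0 to 9.55 (median 9.25) in vehicle livers. The differences were -0.15 ± 0.10 and 0.04 ± 0.10 on the log2 scale (limma adjusted p = 0.506 and 0.937), and the groups overlapped at both times. Over both times the 95% interval, -0.20 to 0.09, lay below that of Rpa1, 0.20 to 0.42, but the genes' differences were not tested against each other.

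**Figure D2:**
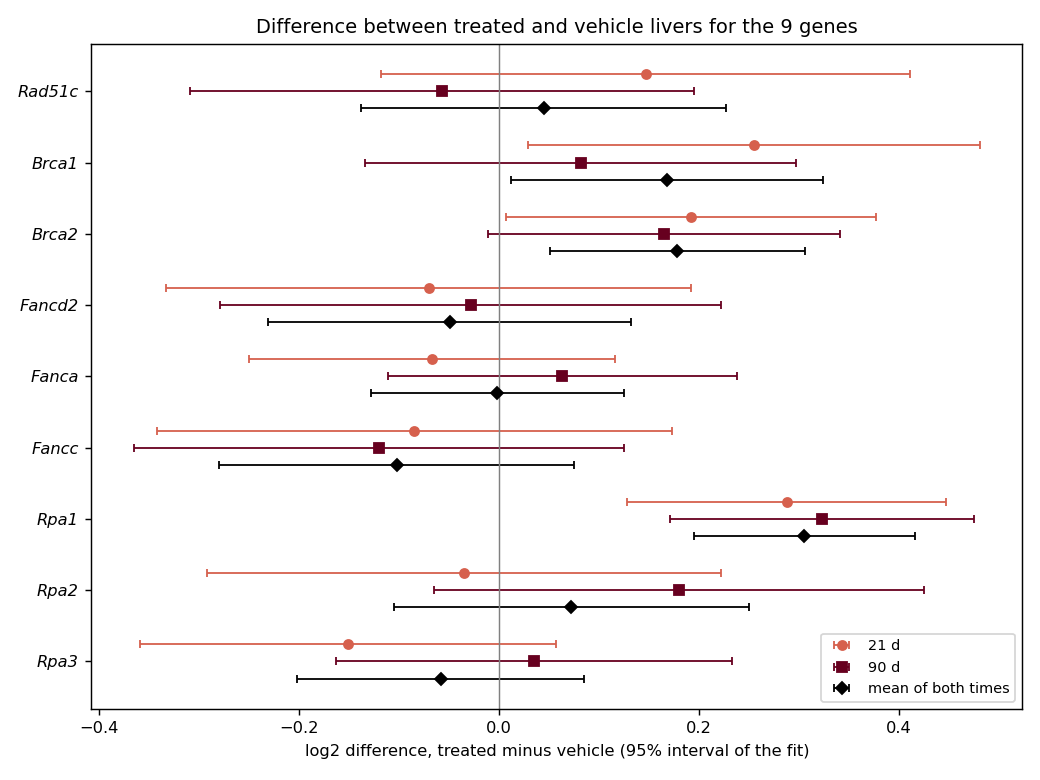
Log2 difference of treated minus vehicle livers for the representative probe set of each gene at 21 d, at 90 d and as the mean of both times, with the 95% interval of the limma fit. The intervals of Rpa1 lie above 0 in all 3 contrasts, from 0.13 to 0.45 at 21 d, while most others include 0.

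Brca2 encodes a mediator of homologous recombination and had 1 probe set, 1419076_a_at. It read 6.56, 6.85, 6.76, 6.55 and 6.54 in treated livers at 21 d, against 6.30 to 6.64 (median 6.46) in vehicle livers. Treated livers at 90 d ran from 6.32 to 6.66 (median 6.53), against 6.08 to 6.51 (median 6.38) in vehicle livers. The group means were higher in treated livers at both times, but the ranges overlapped. The log2 differences were 0.19 ± 0.09 at 21 d, 0.17 ± 0.09 at 90 d and 0.18 ± 0.06 over both times (limma adjusted p = 0.295, 0.531 and 0.135), so none passed.

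Brca1 encodes a ubiquitin ligase subunit that promotes end resection. Its representative probe set, 1451417_at, read 5.27, 4.99, 5.02, 5.03 and 4.90 in treated livers at 21 d, against 4.48 to 4.97 (median 4.87) in vehicle livers. The 90 d values ran from 4.58 to 5.27 (median 4.83) in treated livers, against 4.52 to 4.92 (median 4.84) in vehicle livers. At 21 d only treated replicate 5 lay within the vehicle range. The log2 difference was 0.26 ± 0.11 at 21 d and 0.08 ± 0.10 at 90 d (limma adjusted p = 0.248 and 0.843). The 3 other Brca1 probe sets gave 0.12, -0.12 and 0.05 at 21 d and 0.01, -0.08 and 0.00 at 90 d, and none passed. The 1 that read lower, 1427698_at, correlated with the representative at r = -0.40 over the 23 arrays.

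At an unadjusted p under 0.05, Brca1, Brca2 and Rpa1 were higher in treated livers at 21 d, 3 of the 9 genes, and 16.6% of all genes passed that level in either direction. At 90 d Rpa1 was the 1 member at that level, against 12.1% of all genes. Over both times it was again Brca1, Brca2 and Rpa1, against 18.5%.

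Rad51c encodes a factor of homologous recombination. Probe set 1438453_at read 6.52, 5.84, 6.61, 5.98 and 5.95 in treated livers at 21 d, against 5.85 to 6.40 (median 6.00) in vehicle livers. At 90 d it ran from 5.79 to 6.36 (median 6.10) in treated livers, against 6.00 to 6.26 (median 6.21) in vehicle livers. Treated replicates 1 and 3 at 21 d were above all vehicle livers and the other 3 read 5.98 or less. The log2 differences were 0.15 ± 0.13 and -0.06 ± 0.12 (limma adjusted p = 0.640 and 0.915). The second probe set, 1423026_at, differed by -0.08 and -0.14 (limma adjusted p = 0.791 and 0.700).

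**Figure D3:**
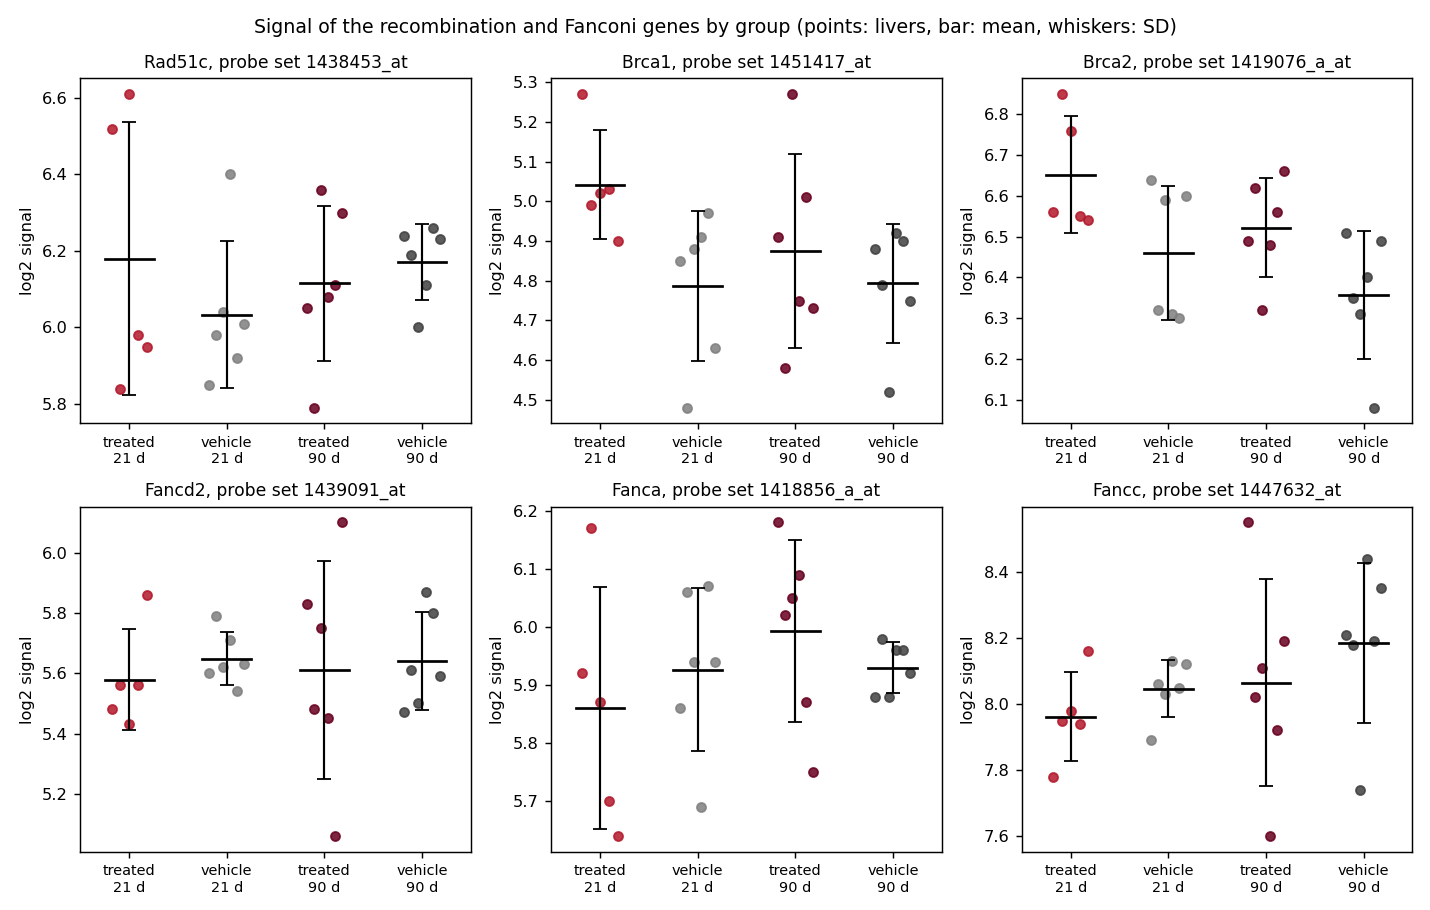
Log2 signal of the representative probe set of Rad51c, Brca1, Brca2, Fancd2, Fanca and Fancc in each liver (points), with the group mean and SD (bar and whiskers). Treated and vehicle livers overlap in every panel at both times, and 4 of the 5 treated Brca1 values at 21 d lie above the highest vehicle value, 4.97.

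Fancd2 encodes the protein whose ubiquitination is the central step of the Fanconi pathway. Probe set 1439091_at read 5.48, 5.56, 5.43, 5.56 and 5.86 in treated livers at 21 d, against 5.54 to 5.79 (median 5.63) in vehicle livers. Treated livers at 90 d ran from 5.06 to 6.10 (median 5.62), against 5.47 to 5.87 (median 5.60) in vehicle livers. The treated livers at 90 d spread wider, with an SD of 0.36 against 0.16, and the log2 differences were -0.07 ± 0.13 and -0.03 ± 0.12 (limma adjusted p = 0.855 and 0.963). Of its 3 other probe sets, 1438339_at differed by -0.17 ± 0.08 at 21 d and by -0.02 ± 0.08 at 90 d (limma adjusted p = 0.301 and 0.948). Probe set 1430916_at differed by -0.01 and -0.02 at these times, and 1442092_at by 0.00 and 0.03, and none passed.

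Fanca and Fancc encode members of the core complex. Fanca probe set 1418856_a_at read 5.92, 6.17, 5.87, 5.70 and 5.64 in treated livers at 21 d, against 5.69 to 6.07 (median 5.94) in vehicle livers, and 5.75 to 6.18 (median 6.04) in treated livers at 90 d, against 5.88 to 5.98 (median 5.94) in vehicle livers. The vehicle values at 90 d lay wholly inside the treated range. The log2 differences were -0.07 ± 0.09 and 0.06 ± 0.08 (limma adjusted p = 0.785 and 0.851). Its deviations from the group means also ran against the Gapdh difference (r = -0.63, rho = -0.39, permutation p = 0.00145 and 0.0691, adjusted over 9 genes 0.00653 and 0.207), and without the 2 farthest arrays r was -0.29, so that relation rests on them. The second Fanca probe set differed by -0.11 at both times (limma adjusted p = 0.540 and 0.666).

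Fancc probe set 1447632_at read 7.78, 7.95, 7.98, 7.94 and 8.16 in treated livers at 21 d, against 7.89 to 8.13 (median 8.06) in vehicle livers. The 90 d values ran from 7.60 to 8.55 (median 8.07) in treated livers, against 7.74 to 8.44 (median 8.20) in vehicle livers. The groups overlapped, and the log2 differences were -0.08 ± 0.12 and -0.12 ± 0.12 (limma adjusted p = 0.811 and 0.785). Probe set 1450861_at differed by -0.18 ± 0.08 at 90 d and by -0.15 ± 0.06 over both times, which missed the threshold (limma adjusted p = 0.471 and 0.206). Probe set 1442265_at differed by 0.09 at 21 d and -0.10 at 90 d (limma adjusted p = 0.668 and 0.708).

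Over all 9 genes, the median log2 difference was -0.04 at 21 d with 4 of 9 above 0, 0.06 at 90 d with 6 above 0 and 0.05 over both times with 5 above 0. The medians of all genes were -0.02, 0.02 and 0.00. Over the 21 probe sets 1 passed over both times, beside 1202 of the 45037 probe sets tested. The 21 differences ran from -0.19 to 0.31, and 9 of them were above 0. Of the 12 probe sets other than the representatives, 8 correlated above 0 with the representative of their gene, with r between -0.40 and 0.67.

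**Figure D4:**
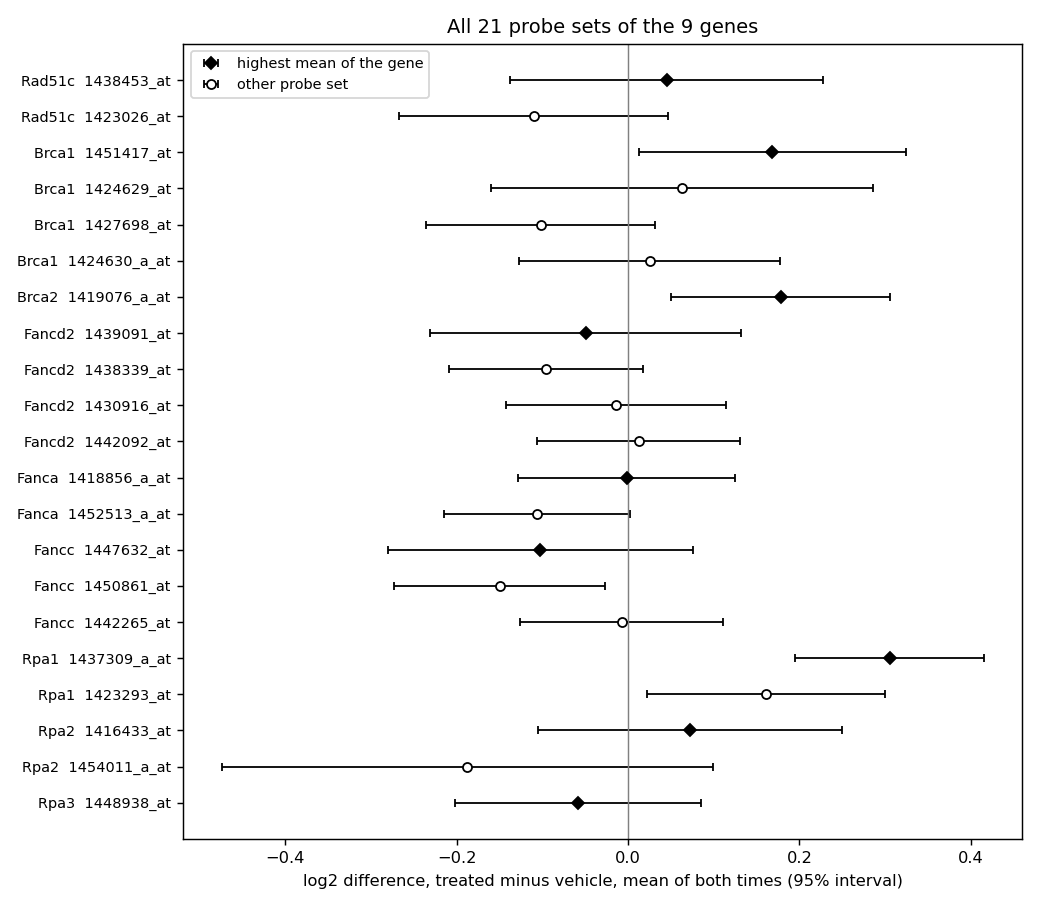
Log2 difference of treated minus vehicle livers as the mean of both times for all 21 probe sets, with the 95% interval of the limma fit. Filled diamonds are the probe sets with the highest mean of each gene and open circles the others. Rpa1 1437309_a_at, at 0.31, is the only 1 that passed the test, and the other Rpa1 probe set lies at 0.16.

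Between the vehicle groups, differences of 90 d minus 21 d ran from -0.10 for Brca2 to 0.14 for Rad51c and Fancc on the log2 scale, and 0 of 9 passed, against 0.011% of all genes (lowest limma adjusted p of a member 0.939).

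Rpa1 and Brca2 varied together among livers of 1 group. As deviations from the group means they correlated at r = 0.66 and rho = 0.69 over the 23 livers (permutation p = 0.00059 and 0.00036, adjusted over the 36 gene pairs 0.0212 and 0.013). Without the 2 livers farthest in Brca2 r was 0.63, and with the part shared with the Gapdh difference removed it was 0.68. Within the groups of 6, r was 0.76 in treated livers at 90 d, 0.58 in vehicle livers at 21 d and 0.38 in vehicle livers at 90 d. Of the 36 pairs, 21 had r above 0 and the median r was 0.04. Rpa1 and Brca2 were the 1 pair with an adjusted permutation p under 0.05 on r. The permutations took no account of the fitted group means, so these p-values are somewhat too small. Whether the pair would pass a stricter test was not tested. Fancd2 and Fancc had r = 0.58 and rho = 0.64 (permutation p adjusted over the 36 pairs 0.103 and 0.022).

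**Figure D5:**
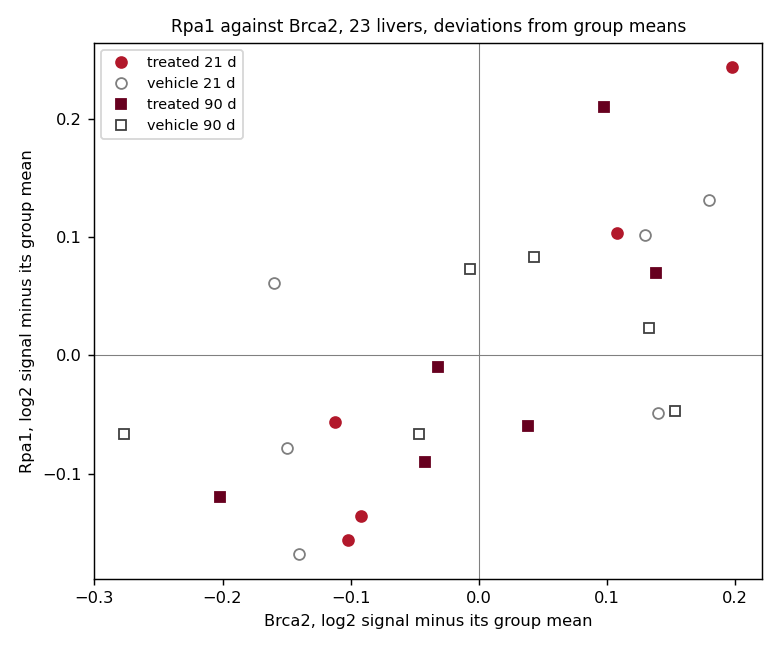
Log2 signal of Rpa1 (vertical) against Brca2 (horizontal), each minus the mean of its group, in the 23 livers. Filled symbols are treated and open symbols vehicle livers, circles 21 d and squares 90 d; livers high in Brca2 tend to be high in Rpa1 (r = 0.66).

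By signal over the 23 arrays with the group differences included, the genes most like Rpa1 among 10843 were Gca (Pearson r = 0.91), Slc38a6 (0.91) and Cnp (0.89). The most alike gene was Iqce for Brca2 (r = 0.81), Hspa4l for Brca1 (0.63), Nus1 for Rad51c (0.83), Tomm70a for Fancd2 (0.84), Anapc16 for Fanca (0.83), Tube1 for Fancc (0.88), Mydgf for Rpa2 (0.84) and Sptssa for Rpa3 (0.83). These are the highest of many correlations over arrays that share groups and RNA quality, and are given as descriptions.

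The other genes of these pathways were read from 3 lists with 73 measured genes. Over both times, 2 of 31 recombination genes rose and 1 fell in treated livers, 2 of 21 Fanconi genes rose and 1 fell, and 0 of 21 genes of single-stranded DNA signalling rose and 1 fell, by the limma test adjusted over all probe sets. Of all 18193 genes, 431 rose and 256 fell in this contrast, 3.78% together. Median differences were 0.01, 0.05 and 0.00 on the log2 scale, beside 0.00 for all genes. At 21 d 0 of the 73 passed, against 1.17% of all genes, and at 90 d 1 did, Babam1, against 0.748%.

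Of the recombination genes, Babam1, a subunit of the BRCA1-A complex, rose by 0.19 ± 0.03 over both times (limma adjusted p = 0.00241) and Blm, a helicase that dissolves recombination intermediates, by 0.43 ± 0.09 (0.0101). Sfr1, an accessory factor of recombination, fell by 0.21 ± 0.05 (limma adjusted p = 0.029). Of the Fanconi genes, Faap20, a core complex partner, rose by 0.42 ± 0.10 (0.0264) and Cenpx, a histone-fold partner of FANCM, by 0.21 ± 0.06 (0.0383). Usp1, which removes ubiquitin from FANCD2, fell by 0.28 ± 0.07 (0.0405), and Rad17, the loader of the checkpoint clamp, fell by 0.24 ± 0.05 (0.016).

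Group means of Blm were 5.53 ± 0.19 in treated and 5.15 ± 0.18 in vehicle livers at 21 d, and 5.53 ± 0.28 in treated and 5.04 ± 0.25 in vehicle livers at 90 d (log2 scale, SD). Those of Usp1 were 9.02 ± 0.21 in treated and 9.36 ± 0.10 in vehicle livers at 21 d, and 9.20 ± 0.24 in treated and 9.42 ± 0.15 in vehicle livers at 90 d. The calls for Babam1, Blm and Rad17 over both times held with any 1 array left out. Blm averaged under 6 on the log2 scale, so it was not in the fit limited to probe sets averaging at least 6. That of Sfr1 ended without treated 21 d replicate 4 or 5, vehicle 21 d replicate 3, or vehicle 90 d replicate 4 or 5 (adjusted p up to 0.0571), and that of Faap20 without vehicle 21 d replicate 6 or vehicle 90 d replicate 5 (up to 0.0532). That of Cenpx ended without treated 21 d replicate 2 or 5, vehicle 21 d replicate 3, 5 or 6, treated 90 d replicate 2, 4 or 5, or vehicle 90 d replicate 1, 2, 3 or 5 (up to 0.0732). That of Usp1 ended without treated 21 d replicate 1, 3, 4 or 5, vehicle 21 d replicate 3, 5 or 6, treated 90 d replicate 2, 4 or 6, or vehicle 90 d replicate 3, 4 or 6 (up to 0.0815). The 90 d call of Babam1, 0.21 (limma adjusted p = 0.0442), held in 6 of 23 such fits. It also ended with only the 90 d groups in the fit, where Faap20 passed in its place (limma adjusted p = 0.139 and 0.00748), and under trend and robust eBayes, median centring and the replicate block. With the Gapdh difference as a covariate, the calls of Sfr1, Rad17 and Usp1 over both times ended (limma adjusted p = 0.111, 0.0624 and 0.306). The differences of Sfr1 and Rad17 were then -0.19 and -0.22, close to those above, and that of Usp1 was -0.14. Without the 5 arrays over 0.9, with 1 treated array left at 21 d, the differences were -0.21 for Sfr1, -0.21 for Rad17 and -0.10 for Usp1, and these calls also ended. The Usp1 call ended with the mean of all its probe sets too (-0.24, limma adjusted p = 0.0959).

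Because many of these genes follow the cell cycle, 23 proliferation genes were read beside them. Over both times 1 of 23 rose, Ccne2, a cyclin of S phase entry, by 0.37 ± 0.07 (limma adjusted p = 0.00566), and by 0.42 with the Gapdh covariate (adjusted p = 0.00567). Without the 5 arrays over 0.9, with 1 treated array left at 21 d, the Ccne2 difference was 0.31 and the call ended (limma adjusted p = 0.0787). The probe set of Ccne2 also averaged under 6 on the log2 scale and was not in the fit limited to those averaging at least 6. At 90 d 0 of 23 passed, while 11 of 23 were higher at an unadjusted p under 0.05, a level that 12.1% of all genes reached in either direction. The median difference over the 23 was 0.19 at 90 d, against 0.02 over all genes. At 21 d the median was 0.06, against -0.02 over all genes, and 0 of 23 passed. There 1 of 23 was higher at an unadjusted p under 0.05, against 16.6% of all genes in either direction. The list averaged 6.12 to 6.65 (median 6.33) in treated and 6.03 to 6.19 (median 6.09) in vehicle livers at 90 d. Its part in the Rpa1 result was not tested.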

How the data were processed

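Liver RNA of 23 mice was measured on Affymetrix Mouse Genome 430 2.0 arrays, 1 array per mouse. The deposited values are log2 signals per probe set. Partek and RMA (background correction, a common distribution for all arrays and 1 value per probe set) were used, per the submitters' processing notes. The sources used here give no settings for them, and the log2 base was read from the range of the values, 2.23 to 15.41. Such normalization hides any shift that all genes share, and signals could not be set against background without raw scans. The submitters excluded 1 treated 21 d array for hybridisation artefacts, per the labels.

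The 64 control probe sets were dropped, which left 45037 for testing. The platform annotation gave 34945 of them 1 gene, 932 several and 9160 none. Group means were fitted in R 4.3.3 by limma 3.58.1 (lmFit, then eBayes; 19 residual degrees of freedom). P-values were adjusted by the Benjamini-Hochberg method over all probe sets, and a probe set passed under 0.05. The contrasts were treated minus vehicle at 21 d, at 90 d and as the mean of both times, the 90 d effect minus the 21 d effect, and vehicle 90 d minus vehicle 21 d. The fit was tested on simulated data with noise that was independent between arrays. Of 50 simulated 1.25-fold changes, 24% passed at 21 d and 48% at 90 d. For 2-fold changes it was 98% at both times. A change of the size seen for Rpa1 could thus often be missed. Replicates are separate mice, their number limits the precision, and array medians lay between 5.53 and 5.61. The labels name no batch.

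The members and lists were chosen with earlier results of these data known. Named genes were all 9 members and every pathway or proliferation gene passing in any contrast. Of the genes most alike, 3 are named for Rpa1 and the first for each other member. Cdkn1a is named from 6 p53 targets read as a check. Same-numbered treated and vehicle mice did not deviate in the same direction. Their deviations from group means over all probe sets correlated below 0 in every pair (r from -0.36 to -0.14), for a reason that was not tested. The main fit has no block. Correlations were tested with 100000 permutations of the deviations from group means over all 23 livers. The fitted means were not allowed for, so these p-values are somewhat too small. Alternatives covered the probe set, a low-signal filter, scaling, the variance prior, array weights, RNA quality, the block and each array left out.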

Additional observations from a re-analysis of the deposited data

Results flagged for a closer look

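Single livers stood far from the rest of their group in 6 of the 84 groups of values (21 probe sets in 4 groups), and chance gives about 1 in 20. Among the representative probe sets, Rad51c was high in vehicle 21 d replicate 4, at 6.40 against 5.85 to 6.04 in the others. Fancc probe set 1447632_at was low in vehicle 90 d replicate 3, at 7.74 against 8.18 to 8.44. Fancc probe set 1442265_at was high in treated 21 d replicate 3, at 6.13 against 5.66 to 5.75, and in treated 90 d replicate 1, at 5.94 against 5.54 to 5.59. The second Rpa1 probe set, 1423293_at, was low in treated 21 d replicate 1, at 8.69 against 9.15 to 9.29, and in vehicle 90 d replicate 1, at 9.02 against 9.12 to 9.14.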

How the results depend on the processing

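The cause of each change below was not tested unless the setting itself gives it. The fit limited to probe sets averaging at least 6 held 6 of the 9 genes. Rpa1 passed in it at 21 d (limma adjusted p = 0.0397), against 0 genes in the report. At 90 d 1 of the 9 genes passed in the report, and leaving out 1 array gave 0 to 1. There 0 passed with the mean of all probe sets, only the groups compared, median centring or the replicate block. At 90 d Rpa1 averaged over its probe sets was 0.27 (adjusted p = 0.0616), and its adjusted p was 0.0571, 0.0585 and 0.0976 under the other 3. Over both times Rpa1 passed in all settings but its second probe set (0.16). Of 1512 values of the members under alternatives, 94 changed sign, and 0 of these had passed. Of the 73 pathway genes, 0 passed at 21 d, but 1 with the mean of all probe sets or the filter, 2 with array weights or without the arrays over 0.9, and 0 to 5 with 1 array left out, the highest without treated 21 d replicate 2. At 90 d 1 passed, but 2 with the mean of all probe sets or the filter, 4 with array weights, the Gapdh covariate or without the arrays over 0.9, 0 with trend and robust eBayes, median centring or the replicate block, and 0 to 3 with 1 array left out. Over both times 7 passed, but 3 with the replicate block, 5 with the Gapdh covariate, 9 with array weights and 4 to 8 with 1 array left out. The filter kept 16 of 31 recombination genes, 16 of 21 Fanconi genes and 18 of 21 genes of single-stranded DNA signalling. The share of all genes passing was not counted under these settings. The fits of pathway genes under quantile normalization and with 1 array left out were chosen after seeing the data. Same-numbered treated and vehicle mice tended to deviate in opposite directions, for a reason that was not tested. The main fit takes the arrays as independent and makes no allowance for this, so the fits with the replicate block belong beside it. With 5 or 6 arrays a group, small differences can be missed.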
